A study of Mus musculus with 6 samples.

Results

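The proteasome genes were examined in kidneys of mice given cisplatin and in control kidneys. They were chosen by symbol as protein-coding genes named Psma to Psmg followed by a digit, leaving out the immunoproteasome subunits Psmb8, Psmb9 and Psmb10 and the unrelated Psmc3ip. The rule found 47 genes among 56691 in the count files, of which 21630 were protein-coding. It used no measured value. The samples were 3 control and 3 cisplatin kidneys of C57BL/6 male mice, 9 weeks old at the first injection. The cisplatin mice received 4 intraperitoneal injections of 8 mg per kg, given weekly, and the control mice received the saline vehicle. Kidneys were taken at week 7, when this schedule serves as a model of chronic kidney disease (CKD), and total RNA was sequenced with a kit that keeps the strand. The labels describe the tissue as whole kidney, so a lower level can reflect fewer cells of a type or less RNA per cell, and these cannot be told apart in bulk RNA.

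The proteasome degrades proteins that carry ubiquitin chains. Its 20S core is a barrel of alpha rings, which gate the entry, and beta rings, of which Psmb5, Psmb6 and Psmb7 carry the cutting sites. The 19S particle caps the barrel, with a ring of ATPases (Psmc genes) that unfolds the substrate and non-ATPase subunits (Psmd genes) that bind ubiquitin and remove it. Dedicated chaperones build both parts and leave the finished particle, and alternative caps (Psme genes) open the core without the need for ubiquitin. Subunit genes are expressed in all cell types of the kidney.

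Transcription factors of the Nfe2l1 and Nfe2l2 family bind the antioxidant response element, whose core, TGACNNNGC, was searched on both strands in the window from 250 bases before to 50 bases after each gene's start. RefSeq windows of build GRCm38.p6 were found for 39 of the 47 genes and none for Psma8, Psmb1, Psmb2, Psmb7, Psmc3, Psmd3, Psmd7 and Psmg2. The core was present in 6 of the 39 windows, 15.4%, against 12.5% of the 27025 windows in the table. A CCAAT box, searched likewise and counted whether or not it overlapped that core, was present in 33.3% of the members' windows and in 37.9% of all windows. Both shares were near those of all genes. A match is a description of the letters and not a bound site. The following 29 bases are shown for the matches with full flanks, since they include subunits and a cap described below. Capitals mark the searched core, and each line is read 5′ to 3′ on the strand that holds it.
Psmb5: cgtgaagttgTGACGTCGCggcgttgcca
Psmb6: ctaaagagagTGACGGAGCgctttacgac
Psmc6: gagcaatgccTGACTTAGCtactggctgg
Psmd9: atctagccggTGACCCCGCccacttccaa
Psme4: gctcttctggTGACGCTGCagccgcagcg
The 300-base window that holds each was found once in its GRCm39 chromosome, which placed the element. The Psmb5 element lies at chr14:54855481-54855509 on the minus strand, and 28 of its 29 bases lie upstream of the start of the canonical GENCODE transcript. The Psmb6 element, at chr11:70416164-70416192 on the plus strand, spans that gene's start with 19 bases upstream and the rest in the 5′ UTR. The Psmc6 element, at chr14:45567044-45567072 on the minus strand, and the Psmd9 element, at chr5:123366212-123366240 on the plus strand, lie wholly upstream of the canonical start. That of Psme4 lies within the 5′ UTR, at chr11:30721758-30721786 on the minus strand.

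Between 21891855 and 26627554 read pairs were counted to genes per library. Levels are given as CPM, the count scaled to a common library size, after TMM scaling, which sets each library by the bulk of its genes. The TMM factors ran from 0.844 to 0.894 in the control libraries and from 1.05 to 1.26 in the cisplatin libraries. The median over every tested gene was a log2 fold change of 0.05 with TMM and of 0.48 with plain library totals. The sign of many members turned with it, so each group below is also given relative to the median of all genes. A scaling factor moves all genes of a library alike, so that distance stays nearly fixed whichever scaling is used. Its agreement between scalings is therefore no added support. Cisplatin 1 stood apart in having 9.32% of its read pairs outside annotated exons, against 6.09% to 6.63% in the other cisplatin libraries and 4.63% to 4.86% in the controls. The tissue label held, since 10 of 10 proximal tubule markers were detected and no marker of any nephron segment was at 0. The summed level of those proximal tubule markers was 30205 to 30453 CPM in control and 4267 to 4617 CPM in cisplatin libraries, and 9 of 10 were lower. Their log2 fold changes had a median of -0.96 and ran from -6.24 to -0.04, so the sum does not stand for each marker. Macrophage markers summed to 82.4 to 100.3 CPM and 245 to 289 CPM, with 6 of 7 higher. Fibroblast markers summed to 168 to 204 CPM and 332 to 516 CPM, with 4 of 5 higher, and the highest sum was in cisplatin 1. The part of these shifts in the results below was not tested.

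Of the 47 genes, 45 had enough reads to be tested. In the edgeR comparison 26 of them were lower in the cisplatin kidneys and 2, Psme1 and Psmg4, were higher, with 17 not passing an adjusted p of 0.05. The background for this was 22.8% of all 15662 tested genes lower and 24.5% higher. With library totals, edgeR passed 0 of the 45 as lower (1 at an unadjusted p under 0.05) and 11 as higher, on a background of 8.79% lower and 54.2% higher. DESeq2, with its own size factors, passed 27 as lower and 1 as higher. The members' median log2 fold change was -0.29 with TMM and 0.14 with library totals, which placed it -0.34 from the median of all genes under both. Likewise 41 of 45 members lay below that median under both, as follows when a scaling moves all genes alike. Without cisplatin 1 the counts were 23 lower and 3 higher, on a background of 22.4% and 23.2%.

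**Figure D1:**
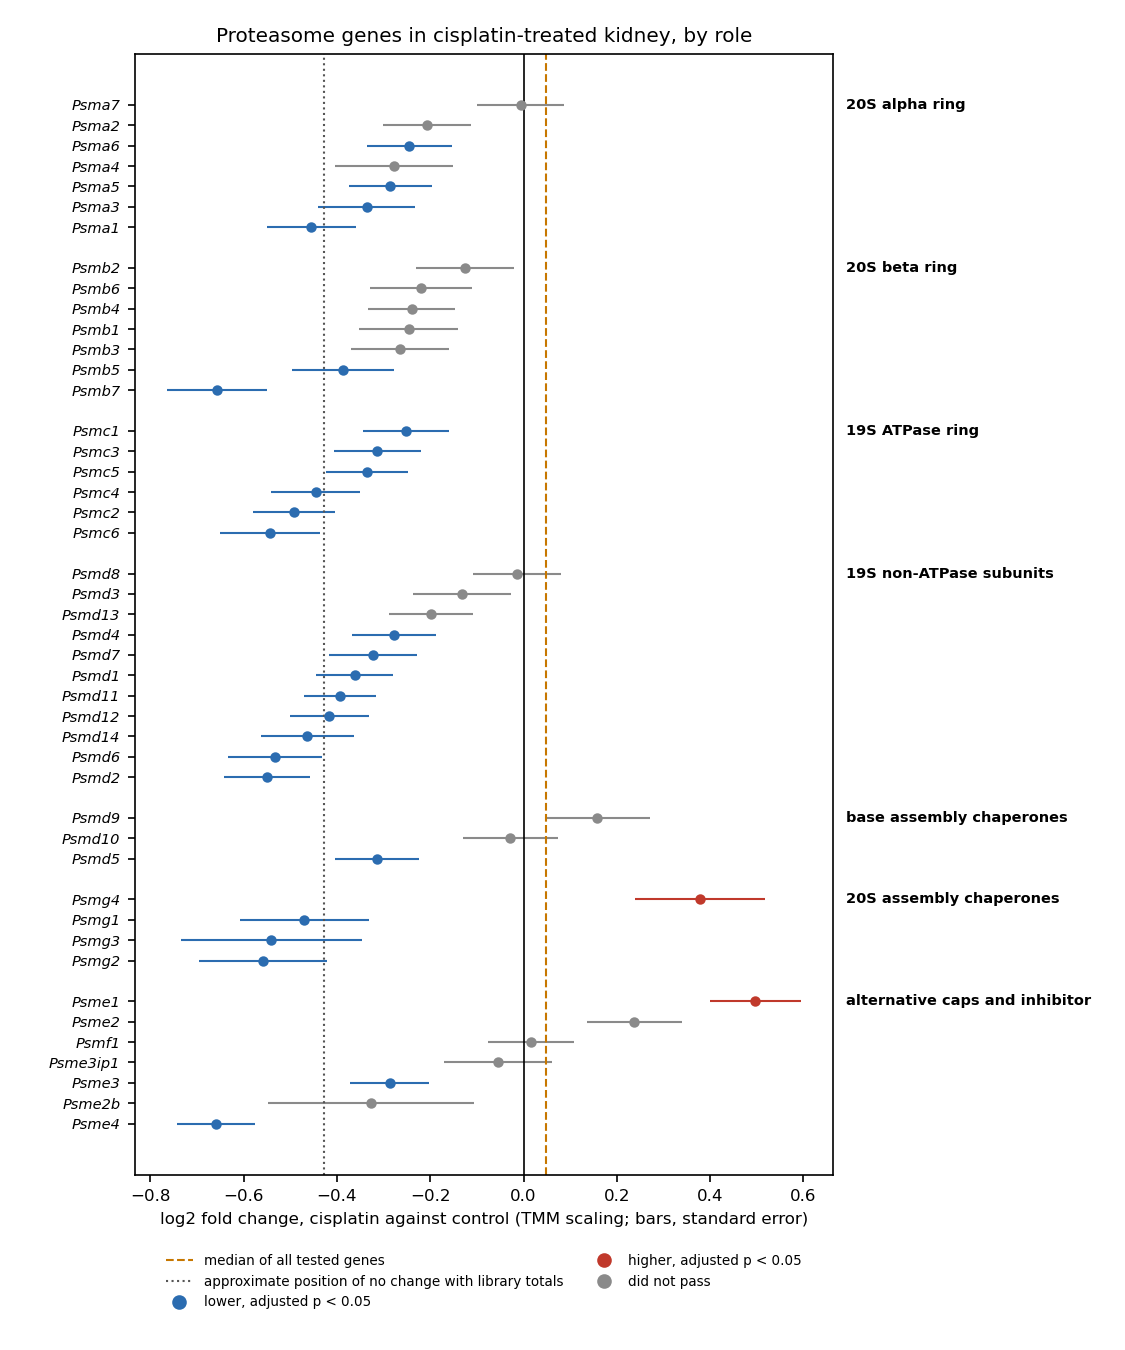
Log2 fold change of each tested proteasome gene, cisplatin against control, with TMM scaling (x axis; bars, standard error; n = 3 per group), in blocks by role. With TMM all 31 core subunits lie to the left of 0, while the dotted line marks about where 0 falls with library totals, under which 8 of 31 stay to the left of it; the dashed line is the median of all tested genes.

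The core genes lay on 1 side of the median gene. All 31 tested subunits of the 20S and 19S particles had a negative log2 fold change with TMM, whereas 8 of 31 did with library totals, and all of them lay below the median of all genes under both. With TMM 20 of 31 passed as lower and none as higher (0 at an unadjusted p under 0.05 and 0 by DESeq2 or limma-voom), while with library totals 4 passed as higher. The summed level of the core subunits was 2213 ± 61.3 CPM in control and 1777 ± 155 CPM in cisplatin kidneys (SD, n = 3 each). As a share of all counted reads, the 47 genes held 0.226% ± 0.00703 in control and 0.244% ± 0.0086 in cisplatin kidneys. Mitochondrial genes held 48.4% to 51.0% of the counts in control libraries and 43.3% to 50.6% in cisplatin libraries. With those left out, the share of the 47 genes was 0.451% ± 0.0110 in control and 0.457% ± 0.0260 in cisplatin kidneys, a difference within these SDs.

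In the alpha ring, which gates the barrel, 4 of 7 tested subunits were lower with TMM and 0 of 7 with library totals, where Psma7 passed as higher. It was 6 of 7 without cisplatin 3, and 1 of 7 without cisplatin 2, control 1 or control 3. The shares of all tested genes lower in these fits were 26.1%, 19.4%, 18.6% and 18%. The ring's median was -0.33 from the median of all genes with TMM and -0.34 with library totals. Psma1 was measured at 69.3, 65.7 and 71.1 CPM in control 1 to 3 and at 45.3, 48.9 and 56.3 CPM in cisplatin 1 to 3. All cisplatin libraries were below all controls, with a log2 fold change of -0.45 (SE 0.0962, adjusted p = 0.00283) that was -0.04 and did not pass with library totals. Psma3 gave 78.4, 71.9 and 76.6 CPM against 53.1, 57.8 and 68.9 CPM in the same order, also without overlap. Its log2 fold change was -0.34 (SE 0.104, adjusted p = 0.0215) and turned to 0.08 with library totals. The level of Psma3 is uncertain, since 16.8% of the 75-base windows of its transcript occur in pseudogenes such as Gm4742, and for Psma5, which passed at -0.29 with TMM, the share was 28.1%. Psma7 stood at 80.5, 82 and 86.9 CPM in control and 74.8, 83 and 90.6 CPM in cisplatin kidneys. Its groups overlapped and its log2 fold change was -0.01, with a 95% interval from -0.21 to 0.20. Psma6 passed with TMM at -0.24 (adjusted p = 0.0451), and Psma2 (-0.21) and Psma4 (-0.28) did not. Psma8, known from testis, had 2 to 4 counts per library and was not tested.

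Among beta subunits 2 of 7, Psmb7 and Psmb5, were lower with TMM, near the 22.8% of all tested genes. With library totals 0 of 7 were lower and Psmb2 passed as higher. Without cisplatin 3 the number lower with TMM was 7 of 7, and without control 3 it was 1 of 7. The shares of all tested genes lower in these fits were 26.1% and 18%. With DESeq2 4 of 7 beta subunits were lower, Psmb3 and Psmb4 being added. The median was -0.29 from that of all genes with TMM and -0.31 with library totals. Psmb7, the trypsin-like subunit (chr2:38478044-38534099, minus strand), was measured at 76.6, 63.4 and 68.5 CPM in control 1 to 3 and at 40.8, 41.4 and 50.1 CPM in cisplatin 1 to 3. The groups did not overlap, at 69.5 ± 6.64 and 44.1 ± 5.21 CPM, and the log2 fold change was -0.66 (SE 0.107, adjusted p = 0.000552). With library totals it was -0.24 and did not pass (adjusted p = 0.0675). Psmb5, which carries the chymotrypsin-like site, gave 35.9, 33.3 and 39.4 CPM against 24, 28.4 and 30.7 CPM. Every cisplatin library was below every control, at a log2 fold change of -0.39 (SE 0.109, adjusted p = 0.0136) that became 0.03 with library totals. Of its transcript's windows 35.5% recur elsewhere and its exons overlap Mir686, so its level is uncertain.

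Psmb6, the caspase-like subunit, stood at 95.4, 95.8 and 94.4 CPM in control and at 68.6, 84 and 92.7 CPM in cisplatin kidneys. The controls were nearly equal and the cisplatin libraries were spread below them without overlap. The log2 fold change of -0.22 (SE 0.109, adjusted p = 0.12) did not pass, and without cisplatin 3 it was -0.35 and passed (adjusted p = 0.0107), whereas without cisplatin 1 it was -0.11 (adjusted p = 0.284). The 3 cutting subunits thus had log2 fold changes of -0.22, -0.39 and -0.66 with TMM. The structural subunits Psmb1, Psmb2, Psmb3 and Psmb4 ranged from -0.27 to -0.13, and none of them passed in the edgeR comparison with TMM given above. Psmb3 and Psmb4 passed as lower with DESeq2, and Psmb1, Psmb3 and Psmb4 did with a replicate block. Psmb11, known from the thymus cortex, had 0 counts in every library, which allows up to 0.146 CPM, the level of 3 counts in control 2.

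**Figure D2:**
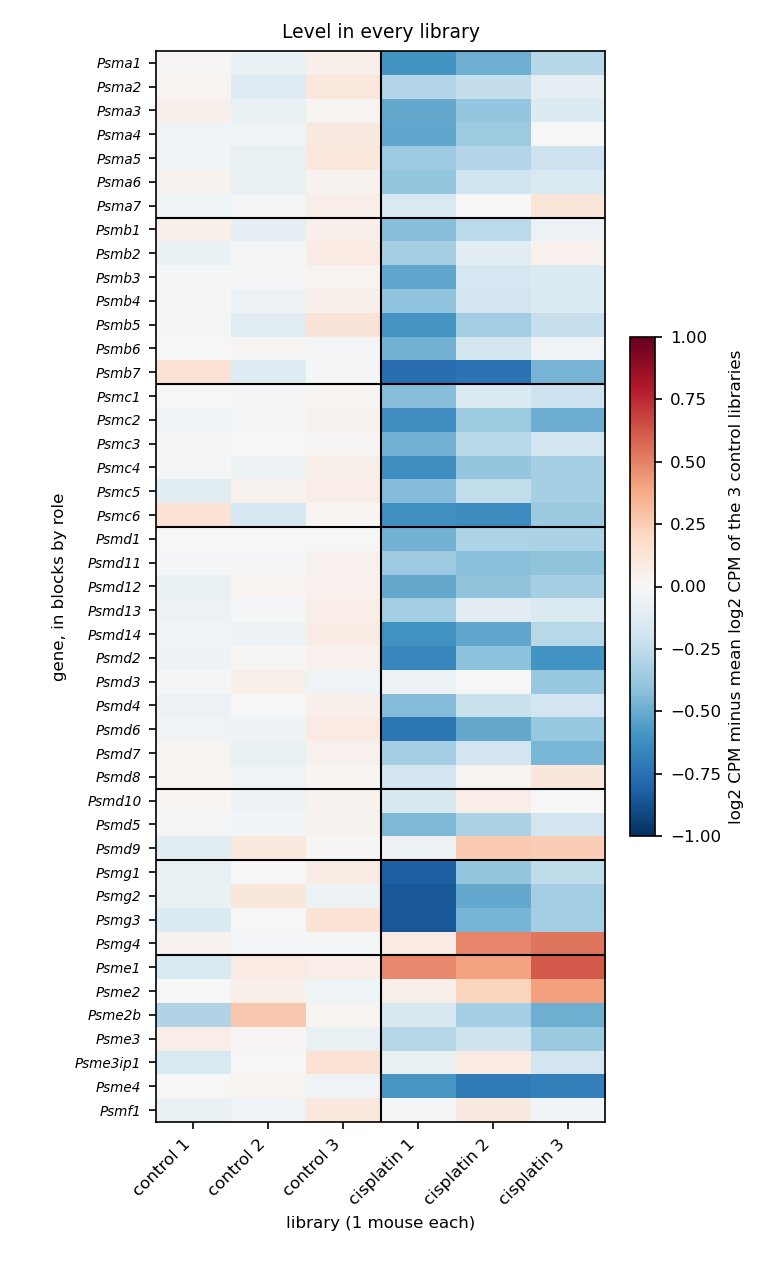
Level of each tested gene in each of the 6 libraries, as log2 CPM with TMM minus the mean of the 3 control libraries (color scale from -1 to 1), in blocks by role. Cisplatin 1 is the bluest column for most genes, being the lowest of its group in 27 of 31 core subunits, and red cells in the cisplatin columns include those of Psme1, Psme2, Psmg4 and Psmd9.

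In the 19S particle 14 of 17 subunits were lower with TMM and 0 of 17 with library totals, where in the barrel it was 6 of 14 and 0 of 14. These counts varied with the library left out. They were 15 of 17 and 13 of 14 without cisplatin 3, where 26.1% of all tested genes were lower. Without control 3 they were 9 of 17 and 2 of 14, where 18% of all tested genes were lower. All 6 ATPases passed as lower with TMM and none with library totals, where 3 of 6 were above 0. Without control 3 it was 3 of 6, and with upper-quartile factors or without control 1 or control 2 it was 4 of 6. Their median was -0.44 from that of all genes under both. Psmc2 was measured at 62.9, 63.5 and 65.8 CPM in control 1 to 3 and at 41.6, 49.7 and 45.4 CPM in cisplatin 1 to 3. The controls were close together and all cisplatin libraries lay below them, at a log2 fold change of -0.49 (SE 0.0886, adjusted p = 0.00104). Psmc6 gave 98.8, 79.7 and 90.6 CPM against 58.4, 57.4 and 68.9 CPM. Its controls were spread more widely, without reaching the cisplatin range, and the log2 fold change was -0.54 (SE 0.107, adjusted p = 0.00186). With library totals these values were -0.07 and -0.13 and did not pass. Psmc1, Psmc3, Psmc4 and Psmc5 ranged from -0.45 to -0.25 and each passed with TMM.

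Of the non-ATPase subunits 8 of 11 were lower with TMM and 0 of 11 with library totals, where Psmd8 and Psmd13 passed as higher. The median was -0.41 and -0.42 from that of all genes. Psmd2, a large scaffold that docks ubiquitin shuttles, stood at 145, 152 and 155 CPM in control and at 95.8, 113 and 99.3 CPM in cisplatin kidneys. The groups did not overlap, and the log2 fold change was -0.55 (SE 0.0921, adjusted p = 0.000638). For 12.8% of its windows the sequence recurs in other transcripts. Psmd6, a lid subunit, gave 62.4, 61.7 and 67.7 CPM against 38.6, 44.9 and 49.2 CPM. It was lower in every cisplatin library, with a log2 fold change of -0.53 (SE 0.101, adjusted p = 0.00144). With library totals Psmd2 was at -0.12 and Psmd6 at -0.11, neither passing. Psmd14, the deubiquitinase of the lid, passed with TMM at -0.46, and Psmd1, Psmd4, Psmd7, Psmd11 and Psmd12 passed between -0.42 and -0.28. Psmd3 (-0.13), Psmd8 (-0.01) and Psmd13 (-0.20) did not. The 95% interval of Psmd8 ran from -0.22 to 0.20, so a change within that range in either direction remains possible.

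The ratio of all 19S counts to all 20S counts in the same library does not depend on the scaling. It was 1.29 ± 0.0322 in control and 1.22 ± 0.0815 in cisplatin kidneys (SD, n = 3). An exact two-sided permutation test gave p = 0.2, where 3 against 3 cannot go below 0.1. It was 1.26, 1.27 and 1.13 in cisplatin 1, 2 and 3, and was lowest in cisplatin 3. The number of subunits called in each was not tested further.

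The chaperones of the core did not share a direction: with TMM 3 of 4 were lower and 1 was higher, and with library totals 0 were lower and 1 higher. Without control 3 it was 1 of 4 lower, Psmg2. Psmg1 and Psmg2 form the pair that starts the alpha ring, and Psmg3 and Psmg4 form the pair that guides it. Psmg1 was measured at 15, 15.8 and 16.6 CPM in control and at 8.94, 12 and 13.2 CPM in cisplatin kidneys, and Psmg2 at 11.1, 12.6 and 11.3 CPM against 6.5, 8.17 and 9.19 CPM. Both were lower in every cisplatin library, with log2 fold changes of -0.47 (SE 0.139, adjusted p = 0.0172) and -0.56 (SE 0.137, adjusted p = 0.00662). Psmg3, at a low level, gave 2.31, 2.53 and 2.79 CPM against 1.41, 1.84 and 2 CPM. Its log2 fold change of -0.54 (SE 0.194, adjusted p = 0.0403) did not pass with DESeq2 or without any 1 of 5 libraries. With library totals these 3 were at -0.05, -0.14 and -0.12 and did not pass.

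Psmg4, the partner of Psmg3, went the other way. It stood at 6.93, 6.66 and 6.73 CPM in control and at 7.15, 9.51 and 9.80 CPM in cisplatin kidneys. Cisplatin 1 lay just above the controls and the other cisplatin libraries well above. The log2 fold change was 0.38 (SE 0.139, adjusted p = 0.0451), which did not pass with DESeq2 or limma-voom (adjusted p = 0.103 and 0.0623) or without any 1 of 5 libraries. Of the windows in its longest transcript 43.5% recur in other transcripts, so its level is uncertain. Pomp, a further chaperone of the core whose symbol is outside the rule, gave 49, 43 and 46.7 CPM against 31.6, 34.2 and 39.2 CPM. It was lower without overlap at -0.40 (SE 0.0993, adjusted p = 0.00683) with TMM and at 0.01 with library totals.

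The base chaperones hold the ATPases during assembly. Psmd5 was measured at 38.2, 37.7 and 39.4 CPM in control and at 28.2, 30.9 and 33.8 CPM in cisplatin kidneys. It was lower in every cisplatin library, at -0.31 (SE 0.0897, adjusted p = 0.0147) with TMM and at 0.11 with library totals, and it did not pass without control 3 (adjusted p = 0.0657). Psmd9 gave 14.4, 16.7 and 15.8 CPM against 15.1, 18.7 and 18.5 CPM, and Psmd10, known as gankyrin, 12.9, 12.3 and 13.1 CPM against 11.4, 13.4 and 12.8 CPM. Their groups overlapped, and the log2 fold changes of 0.16 (95% interval -0.09 to 0.41) and -0.03 (-0.25 to 0.20) did not pass with TMM. With library totals both passed as higher, at 0.58 and 0.40. Relative to the median of all genes these were 0.11 and -0.08 with TMM.

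Of the 7 caps, partners and inhibitors, 2 were lower and 1 higher with TMM, beside 22.8% and 24.5% of all tested genes. With library totals 0 were lower and 4 higher, beside 8.79% and 54.2%. The 2 lower with TMM and the 4 higher with library totals were near those shares. Without control 1 or control 2 Psme3 did not pass and 1 was lower. Psme4, the large single-chain cap found in nuclei (chr11:30721725-30830376, plus strand), was measured at 176, 179 and 170 CPM in control 1 to 3 and at 117, 107 and 109 CPM in cisplatin 1 to 3. The spread within each group was small beside the gap between them, at 175 ± 4.23 and 111 ± 5.07 CPM. The log2 fold change was -0.66 (SE 0.0838, adjusted p = 0.000103), and -0.23 with library totals, where it did not pass (adjusted p = 0.0766). Psme4 had the smallest adjusted p of the 45 members. Psme3, the subunit of the nuclear ring cap, gave 37.5, 36.2 and 34.1 CPM against 29.4, 31.1 and 27.8 CPM. It was lower without overlap at -0.29 (SE 0.0855, adjusted p = 0.0179) with TMM and at 0.14 with library totals.

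Psme1 and Psme2 encode the subunits of the cap that interferon induces, and they are neighbours on chromosome 14 (chr14:55815190-55822034, plus strand, and chr14:55824895-55829173, minus strand). Psme1 stood at 24.5, 28.7 and 28.4 CPM in control and at 37.8, 35.8 and 41.6 CPM in cisplatin kidneys. All cisplatin libraries were above all controls, 1.41-fold higher, with a log2 fold change of 0.50 (SE 0.0975, adjusted p = 0.0018). It passed as higher under each scaling and without any 1 library. Psme2 gave 26.5, 27.5 and 25.9 CPM against 27.8, 31.1 and 35.5 CPM. The groups did not overlap, yet cisplatin 1 was close to the highest control, and the log2 fold change of 0.24 (SE 0.102, adjusted p = 0.0766) did not pass. Without cisplatin 1 it was 0.32 and passed (adjusted p = 0.0134), and without cisplatin 3 it was 0.11 (adjusted p = 0.296).

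Psme2b, a near copy of Psme2, was at 1.34, 1.99 and 1.68 CPM in control and 1.48, 1.31 and 1.18 CPM in cisplatin kidneys. Its groups overlapped at -0.33 (adjusted p = 0.245), and since 60.3% of its windows occur in Psme2 and 29.7% of those of Psme2 occur in Psme2b, reads can be lost from both. Psmf1, an inhibitor of the core, gave 19, 19.4 and 21.5 CPM against 19.8, 21.3 and 19.5 CPM. Psme3ip1, a partner of Psme3, gave 11.3, 12.6 and 13.9 CPM against 11.9, 13.3 and 11.1 CPM. Both overlapped between groups, with log2 fold changes of 0.02 (95% interval -0.19 to 0.22) and -0.06 (-0.31 to 0.20).

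**Figure D3:**
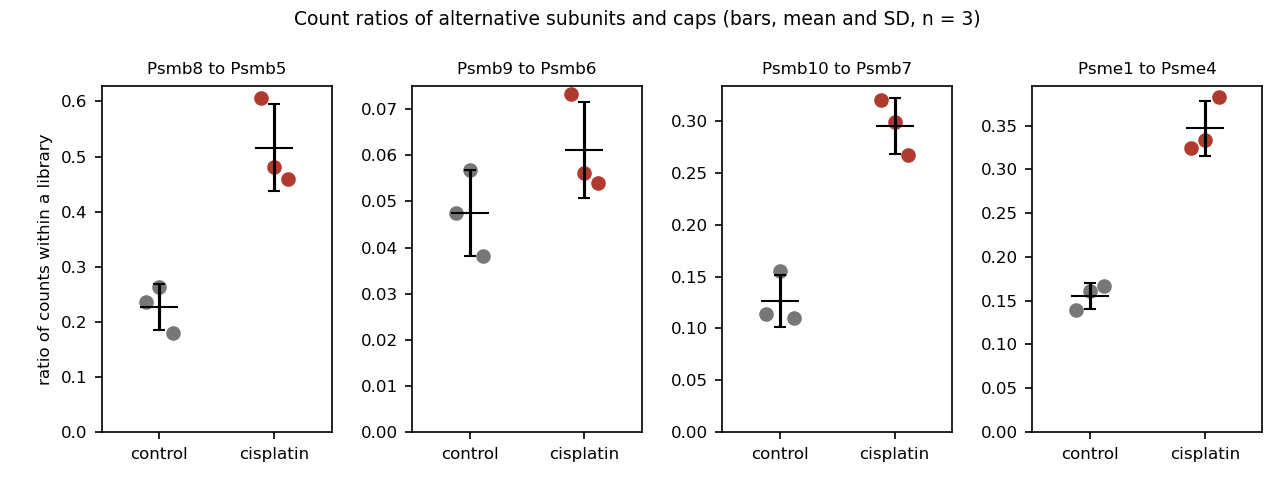
Ratios of counts within each library for the 3 immunoproteasome subunits over the cutting subunits they replace and for Psme1 over Psme4 (y axes from 0; points are libraries 1 to 3 from left to right, crossbars the mean and SD, n = 3). The control and cisplatin points do not overlap for Psmb8 to Psmb5, Psmb10 to Psmb7 and Psme1 to Psme4, and they do for Psmb9 to Psmb6.

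Immunoproteasome subunits take the places of the cutting subunits in cells exposed to interferon and in immune cells. Psmb8 was at 8.48, 8.76 and 7.11 CPM in control and at 14.6, 13.7 and 14.1 CPM in cisplatin kidneys. Psmb10 gave 8.69, 9.88 and 7.54 CPM against 13.1, 12.4 and 13.4 CPM. Both were higher without overlap, at log2 fold changes of 0.80 (SE 0.111, adjusted p = 0.000191) and 0.57 (SE 0.118, adjusted p = 0.00248), and passed as higher with library totals too. Psmb9 stood at 4.53, 5.45 and 3.60 CPM against 5.02, 4.72 and 5.01 CPM, overlapping at 0.12 (SE 0.161, adjusted p = 0.568), and passed as higher with library totals at 0.54.

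Ratios within a library put these beside the members without any scaling. The count of Psmb8 over Psmb5 was 0.237, 0.263 and 0.180 in control and 0.606, 0.482 and 0.460 in cisplatin kidneys, a ratio of means of 2.28. Psmb10 over Psmb7 was 0.113, 0.156 and 0.110 against 0.321, 0.299 and 0.267, a ratio of means of 2.34. Psme1 over Psme4 was 0.139, 0.161 and 0.167 against 0.324, 0.334 and 0.383, a ratio of means of 2.23. For each of these 3 the groups were well separated. Psme1 over Psme3 went from 0.760 ± 0.0952 to 1.31 ± 0.174. Psme2 over Psme1, the subunits of 1 cap, went from 0.984 ± 0.0886 to 0.819 ± 0.0738. Psmb9 over Psmb6 was 0.0475 ± 0.00935 and 0.0611 ± 0.0105, with overlap and an exact permutation p of 0.3. The exact permutation p was 0.1 for the other 5 of these 6, the lowest that 3 against 3 allows, and 0.14 after adjustment over the 7 ratios compared, so none passed. The summed macrophage markers were 245 to 289 CPM in the cisplatin libraries against 82.4 to 100.3 CPM, and T cell markers 2.88 to 4.16 CPM against 1.35 to 2.10 CPM. Their part in these ratios was not tested.

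**Figure D4:**
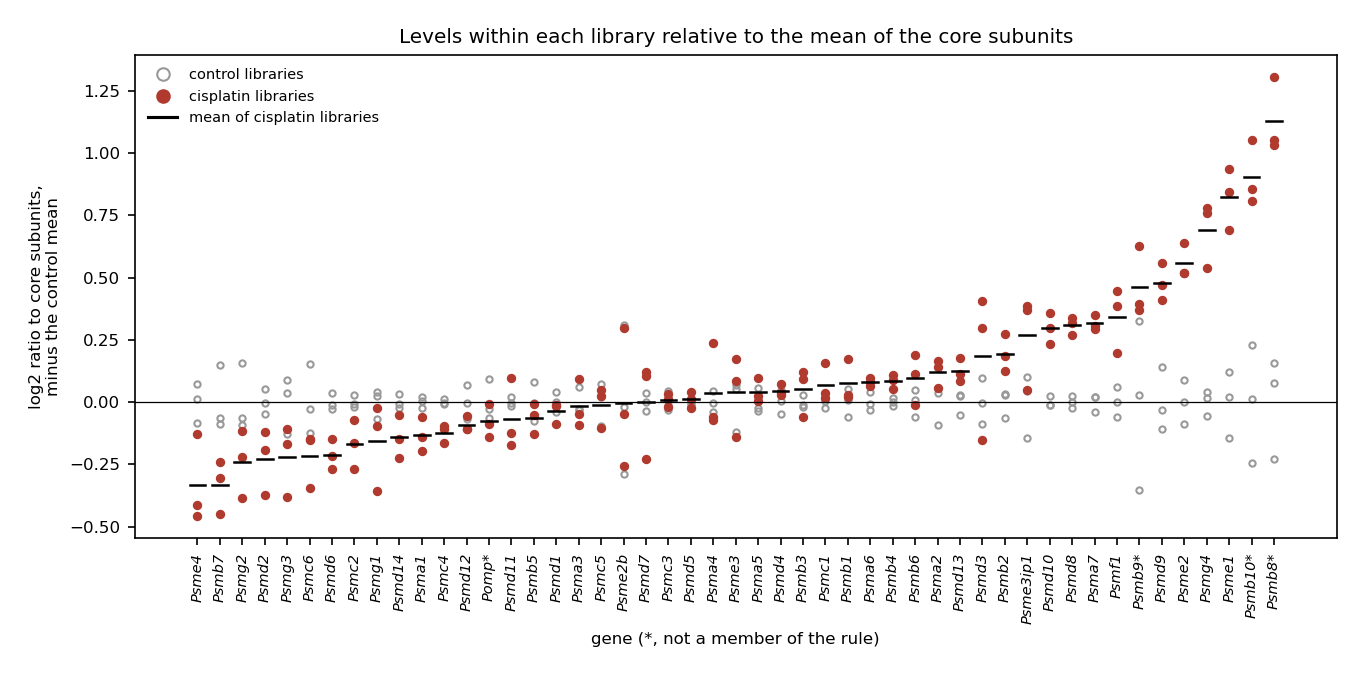
Log2 ratio of each gene's count to the mean of the 31 tested core subunits in the same library, minus the control mean (y axis), for control (open) and cisplatin (filled) libraries with the cisplatin mean as a bar; genes marked * are outside the rule. Genes run from Psme4 and Psmb7 at -0.33 to Psmb10 at 0.91 and Psmb8 at 1.13.

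Set against the mean of the core subunits within each library, the members could be compared with each other, again without scaling. By this measure 17 of the 31 core subunits overlapped between groups, 8 were lower in all cisplatin libraries and 6 higher. Of all tested genes 13% were lower and 52% higher in this way. The core differences ran from -0.33 for Psmb7 to 0.32 for Psma7. For the core the replicate SD had a median of 0.04 in control and 0.07 in cisplatin libraries on the log2 scale. Those below the others included the ATPases Psmc2 (-0.17), Psmc4 (-0.12) and Psmc6 (-0.21) and the 19S subunits Psmd2 (-0.23), Psmd6 (-0.21) and Psmd14 (-0.14). Those above included Psmd8 (0.31), Psmb2 (0.20), Psmd13 (0.13), Psmb4 (0.08) and Psma6 (0.08), though these too lay below the median of all genes. The differences are small and their mean over the core is 0 by construction.

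Over all 45 tested members 10 were below and 12 above in all cisplatin libraries by this measure, on a background of 13% of all genes below and 52% above. Outside the core, Psme1 (0.82), Psmg4 (0.69), Psme2 (0.56), Psmd9 (0.48), Psmf1 (0.34) and Psmd10 (0.30) were above without overlap. The core itself lay below the median of all genes, so a place above the core need not be a rise. Relative to that median with TMM, Psmf1 was at -0.03 and Psmd10 at -0.08. Psmd9 was at 0.11, Psme2 at 0.19, Psmg4 at 0.33 and Psme1 at 0.45. Psme4 (-0.33) and Psmg2 (-0.24) were below without overlap, whereas Psmg1 (-0.16) and Psmg3 (-0.22) overlapped. Psmd5 and Pomp, at 0.01 and -0.08, stayed with the core within the overlap of the groups.

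**Figure D5:**
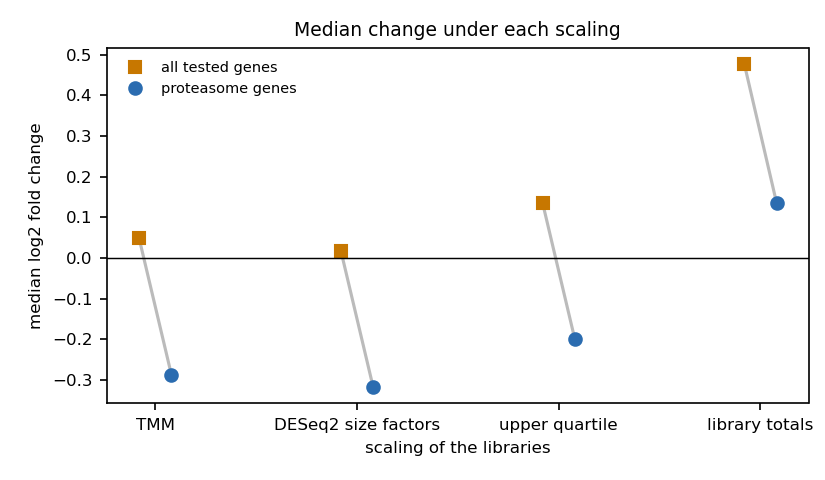
Median log2 fold change of the 45 tested proteasome genes (circles) and of all tested genes (squares) under 4 scalings of the libraries. The members' median is -0.29 with TMM, -0.32 with DESeq2 size factors, -0.20 with upper-quartile factors and 0.14 with library totals. It lies about the same distance below that of all genes each time, since a scaling moves all genes alike.

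Levels between genes were compared per length, in CPM per kilobase of the union of a gene's exons. Core subunits in control kidneys had a median of 14.4 CPM per kilobase and ran from 5.18 for Psmb2 to 43.4 for Psmb6, a ratio of 8.38. With the Ensembl canonical transcript as the length the extremes were the same genes and the ratio was 7.60, and with the longest transcript it was 7.61, with Psmc3 highest. The ATPases ran from 9.39 for Psmc2 to 38.9 for Psmc3. Levels per kilobase of the chaperones were lower, with medians of 3.67 for those of the base and 2.70 for those of the core, and they stayed below the median of the core subunits with all 3 lengths. Of the caps per kilobase of exons Psme4 was the highest and Psme2b the lowest, whereas per kilobase of canonical transcript Psme2 was at 27.6 ± 0.86 and Psme4 at 27 ± 0.651 and they did not differ beyond these SDs.

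Of cofactors outside the rule, 11 of the 12 listed were found, and Paaf1 was not analysed here. With TMM 5 were lower and 1 higher, beside 22.8% and 24.5% of all tested genes. With library totals 1 was lower and 6 were higher, near the 8.79% and 54.2% of all tested genes. The list's median was -0.21 from that of all genes under both. Fbxo7, a ubiquitin ligase subunit that binds Psmf1, was at 57, 65.3 and 59.2 CPM in control and at 29.3, 33 and 34.8 CPM in cisplatin kidneys. It was lower in every cisplatin library at a log2 fold change of -0.90 (SE 0.095, adjusted p = 2.74e-05) and passed as lower with library totals too. Besides Pomp, Ublcp1 (-0.34), a phosphatase that acts on the proteasome, and Adrm1 (-0.30), a ubiquitin receptor of the cap, were lower with TMM but at 0.08 and 0.13 with library totals. Akirin2, which brings proteasomes into the nucleus, was lower at -0.28 with TMM and stood at 0.16 with library totals. Zfand5, an activator of the particle, was the higher one at 0.30 (adjusted p = 0.0106).

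Of the genes that drive transcription of the proteasome, 3 of 10 were lower and 3 higher with TMM. These shares were near the 22.8% and 24.5% of all tested genes. With library totals 0 were lower and 6 higher, beside 8.79% and 54.2% of all tested genes. Nfe2l1, the factor that raises proteasome genes when the particle is short, stood at 101, 104 and 101 CPM in control and at 134, 128 and 107 CPM in cisplatin kidneys. It was higher in every cisplatin library at 0.27 (SE 0.0989, adjusted p = 0.0433), which did not pass with DESeq2 (adjusted p = 0.068) or without any 1 of 5 libraries. The enzymes that free and activate Nfe2l1 went down with TMM, Ngly1 at -0.48 (adjusted p = 0.00231) and Ddi2 at -0.38 (adjusted p = 0.01), and stood at -0.06 and 0.05 with library totals. Nfya, a subunit of the factor that binds CCAAT, was lower at -0.45 with TMM and at -0.02 with library totals. With TMM Nfe2l2 rose by 0.61 (edgeR, adjusted p = 0.000285) on the log2 scale and Maff, a small partner, by 1.53 (adjusted p = 0.000119). Maff was low in control, at 1.60, 1.51 and 1.10 CPM, against 4.57, 3.45 and 4.23 CPM in cisplatin kidneys. Mafg and Mafk, the other small partners listed, stood at -0.17 and -0.13 with TMM and did not pass. With library totals these were at 0.27 and 0.30, where Mafk passed as higher.

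Of the genes that make ubiquitin or bring tagged proteins to the particle, 8 of 14 were lower with TMM and 0 higher (edgeR, 0 at an unadjusted p under 0.05 and 0 by DESeq2), with a median of -0.44 from that of all genes, and with library totals 0 were lower and 2 higher at the same distance. Vcp, the ATPase that extracts proteins for degradation, was at 220, 229 and 224 CPM in control and at 143, 149 and 135 CPM in cisplatin kidneys. It was lower in every cisplatin library at -0.66 (SE 0.0859, adjusted p = 0.000125), and at -0.23 with library totals, not passing. Its cofactor Nsfl1c (-0.52) and the shuttle Ubqln1 (-0.50) were lower as well with TMM, and stood at -0.10 and -0.07 with library totals.

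The cisplatin libraries differed among themselves more than the controls did. Summed over the core subunits, the level was 2205, 2155 and 2277 CPM in control 1 to 3 and 1607, 1815 and 1910 CPM in cisplatin 1 to 3. Cisplatin 1 was the lowest of its group in 27 of 31 core subunits, and cisplatin 3 was the highest in 14 of 14 subunits of the barrel and in 8 of 17 of the 19S particle. Leaving out cisplatin 3 gave 34 members lower with TMM, and leaving out control 3 or control 1 gave 14 and 17. In these fits 26.1%, 18% and 18.6% of all tested genes were lower. The members' median log2 fold change was -0.36, -0.30 and -0.31. Over the 6 fits that each left out 1 library, 13 members passed as lower every time with TMM, which were Psma1, Psmb7, Psmc2, Psmc4, Psmc6, Psmd1, Psmd2, Psmd6, Psmd11, Psmd12, Psmd14, Psme4 and Psmg2. Psme1 passed as higher every time. In all, 30 members were below and 3 above the controls in all cisplatin libraries in CPM with TMM, on a background of 27.6% and 30.2% of all genes.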

How the data were processed

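Total RNA of 3 control and 3 cisplatin kidneys was sequenced by the authors as paired reads of 150 bases, trimmed with Cutadapt and aligned and counted per gene with STAR on mm39. The methods for these libraries name no tool versions or annotation release. The deposited values are raw counts of read pairs per gene, and the column of the transcript's strand was used, which held 96.7% to 97.2% of the pairs counted on either strand. Reads that map to several places are not counted.

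The 56691 gene identifiers were named with GENCODE vM39. Genes were filtered with filterByExpr (10 counts, 15 in total), which left 15662, and tested with edgeR 4.0.16 by its quasi-likelihood test with TMM factors and Benjamini-Hochberg adjustment over all 15662 at 0.05. DESeq2 1.42.0, limma-voom (limma 3.58.1), other scalings and filters, counts without strand, a replicate block and leaving out each library were alternatives. The biological coefficient of variation was 11.0%. The test was checked on simulated data.

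Values in every library are given for the cutting subunits, caps and chaperones and for the 2 called members of each role group with the smallest adjusted p, and for Pomp, Psmb8, Psmb9, Psmb10 and Nfe2l1. Of lists outside the rule up to 4 called genes each way are named, mostly with a log2 fold change alone, and Mafg and Mafk beside Maff. The values of 1 gene named by this rule are not reported here. The members and lists were chosen with earlier results of these data known. The ratios within a library, the levels relative to the core subunits (0.5 added to counts) and the canonical transcript length were added after the values were seen. Sequence shared between transcripts was searched in windows of 75 bases, and promoter windows came from RefSeq. The labels give no batch, and p-values weigh the difference between the groups against the spread between these libraries.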

Additional observations from a re-analysis of the deposited data

How the results depend on the processing

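The scaling decided the direction of most members. With library totals 0 members were lower and 11 higher and their median log2 fold change was 0.14. Of the 45 tested members 28 changed sign there, as did 16 genes of the other lists. Under the naming rule these were Adrm1 0.13, Ddi2 0.054, Pomp 0.015, Psma3 0.079, Psmb5 0.032, Psmb6 0.20, Psmd10 0.40, Psmd5 0.11, Psme2b 0.11, Psme3 0.14, Psme3ip1 0.38 and Ublcp1 0.084. Of the other lists, cofactors then had 1 lower and 6 higher, transcription genes 0 and 6, and ubiquitin genes 0 and 2. Of all tested genes 8.79% were then lower and 54.2% higher. Upper-quartile factors gave 16 members and 2 cofactors lower, and log2 fold changes of 0.059 for Psmd10 and 0.031 for Psme3ip1. A minimum of 10 counts in every library put Psmd10 at 0.00064. Psmf1 was at -0.014 with DESeq2 and with its size factors alone. A test against a fold of 1.2 left 11 members lower and 1 higher, 1 cofactor lower and 0 higher (edgeR, where 1 was higher by DESeq2 without that limit), and 1 transcription gene lower. A threshold of 0.01 left 14 members lower and 1 higher, 2 cofactors lower and 0 higher, and 1 transcription gene lower. Just 1 member was higher with DESeq2, its size factors, limma-voom or counts that ignore strand. Leaving out 1 library at a time gave 14 to 34 members lower and 1 to 3 higher. The share of all tested genes lower ran from 18% to 26.1% in these fits. They gave 2 to 5 cofactors lower and 0 to 1 higher. Of transcription genes 1 to 3 were lower and 2 to 3 higher, and members' medians ran from -0.36 to -0.25. In those fits Psmd10 ran from -0.076 to 0.037 (above 0 without cisplatin 1), Psmb9 from -0.025 (without control 3) to 0.26, Psme3ip1 from -0.13 to 0.014 (without control 3) and Psmf1 from -0.022 to 0.066 (below 0 without cisplatin 2, control 1 or control 2). Same-numbered libraries deviated together with correlations of 0.133, 0.142 and 0.0997, and each correlated best with its own number. The labels give only that number and state no pairing, and the libraries were not treated as pairs in the main test. With the replicate block 30 members were lower and 2 higher, and the calls of all 41 genes under the naming rule stayed. The cause of these differences was not tested. Of the members, those at a few CPM, Psmg3 and Psme2b, had the widest standard errors, 0.194 and 0.221 on the log2 scale.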
